A study of Mus musculus with 7 samples.

Results

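The glycolysis and hypoxia response module comprises 31 genes, picked by symbol: the transporters, isozymes and enzymes that carry glucose to lactate, the hypoxia-inducible factor (HIF) subunits with the proteins that degrade them, and genes that HIF is known to switch on. All 31 had a row among the 43346 genes of the count table, and all 31 held enough counts to be tested among 15810 genes. They were measured by poly(A) RNA-seq in whole colon tumors of 7 mice, of which 3 had received Dnmt3a+/+ bone marrow (BM) and 4 had received Dnmt3a+/Δ BM. The labels give wild-type C57BL6/J recipients of 8 wk, and the study's methods give congenic wild-type recipients of a younger age that carry another Ptprc allele than the donors. All were lethally irradiated and grafted, then given 1 injection of azoxymethane (AOM, 10 mg/kg), a carcinogen, and 3 cycles of 3% dextran sulfate sodium (DSS, 1 wk on and 2 wk off), which injures the colon lining. The grafts came from mice with or without 1 floxed Dnmt3a allele, a DNA methyltransferase gene, deleted by Mx1-Cre after poly(I:C), so the deletion lay in the donor blood cells and the tumor epithelium and stroma were of the recipient. The sample descriptions carry the codes BMT18 and BMT8, read here as 2 transplantation experiments, since the study abbreviates BM transplantation as BMT. The codes themselves do not say what the number stands for. Replicates 1 and 2 of each group are from BMT18, and the others (replicate 3 of the Dnmt3a+/+ group, replicates 3 and 4 of the Dnmt3a+/Δ group) from BMT8.

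Glycolysis splits glucose into pyruvate in the cytosol, and lactate dehydrogenase with the lactate exporters lets the path run without oxygen. HIF is a pair of proteins, an oxygen-sensitive α subunit and a stable partner. With oxygen present, prolyl hydroxylases of the Egln family mark the α subunit, the Vhl protein binds it and it is destroyed. When oxygen is short, HIF binds DNA at a short core sequence and raises glucose transporters, glycolytic enzymes, lactate export and its own hydroxylases. HIF protein is controlled mainly after its mRNA is made, so the mRNA of Hif1a is not a measure of HIF activity, while the mRNA of its targets is the usual readout.

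Total counts ranged from 38472738 to 64314999 per tumor with a median of 40300780, so the least counted value of Ankrd37 still rested on 191 fragments. Levels are given as CPM, counts scaled to a library of fixed size, on the library sizes that the TMM method of edgeR corrects for composition. Dnmt3a itself, summed over the whole gene and not over the deleted part, had a CPM of 24.3, 23.1 and 20.2 with Dnmt3a+/+ BM and 27.7, 43.0, 28.3 and 22.0 with Dnmt3a+/Δ BM, so the tumor RNA does not check the genotype of the graft. The most alike libraries across genes were replicate 1 of both groups (Spearman's rho 0.984), and the least alike were Dnmt3a+/+ replicate 1 and Dnmt3a+/Δ replicate 2 (0.902). In a whole tumor, fewer cells of a type and less RNA per cell cannot be told apart.

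The module leaned toward lower levels with Dnmt3a+/Δ BM, by a small margin for most enzymes and by a larger one for a few HIF targets outside glycolysis. The members were chosen with earlier results of these data known. Their shares beside those of all genes, here and below, are thus a description and not an independent test. The log2 fold change (Dnmt3a+/Δ minus Dnmt3a+/+ BM) was below 0 for 26 of the 31 genes (83.9%) against 49.8% of all genes tested, and its median was -0.26 against 0.003 over all genes. In BMT18 alone it was below 0 for 19 of the 31, with a median of -0.17 against 0.02 over all genes. Dnmt3a+/+ replicate 3, the only control of BMT8, had the highest TMM-scaled value of all 7 tumors for 14 of the 31. The share of all genes for which it was highest was not counted. With scaling by library size alone, the median of all genes was 0.21 and 19 members were below 0, and relative to the median of all genes the members' median was -0.26 under TMM and -0.25 under library size alone, with 26 and 25 members under it. The call required a log2 fold change over 1 in size together with an adjusted p below 0.05. By edgeR's quasi-likelihood test none of the members was called, as 0 of 15810 genes (0.0%) were, and the lowest adjusted p of any gene was 0.361. At an unadjusted p under 0.05, 4 members (12.9%) were lower, namely Ankrd37, Egln3, Car9 and Pfkp, against 5.2% of all genes, and 1 (3.23%), Ndrg1, was higher against 5.83%. DESeq2 called 299 of the 16377 genes to which it gave an adjusted p (1.83%), and 1 member, Ankrd37, was among them.

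In TMM-scaled CPM, every Dnmt3a+/Δ tumor lay below every Dnmt3a+/+ tumor for 8 members (25.8%): Slc2a1, Gpi1, Aldoa, Ldha, Egln1, Egln3, Ankrd37 and Car9. Over all genes tested this held for 6.32%. The opposite held for 1 member, Ndrg1 (3.23%), against 6.12% of all genes. For Slc2a1, Egln1 and Aldoa the gap between the groups was narrow, with the nearest tumors at 207 and 209 CPM for Slc2a1, 87.3 and 87.5 for Egln1, and 1173 and 1188 for Aldoa. With library size alone, Slc2a1, Gpi1, Aldoa, Egln1 and Car9 overlapped, while Ldha, Egln3, Ankrd37 and, on the other side, Ndrg1 stayed apart. The share of all genes was not counted on that scale. With 4 tumors against 3, a two-sided exact permutation test cannot go below 0.0571, so for single values it cannot reach 0.05.

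**Figure D1:**
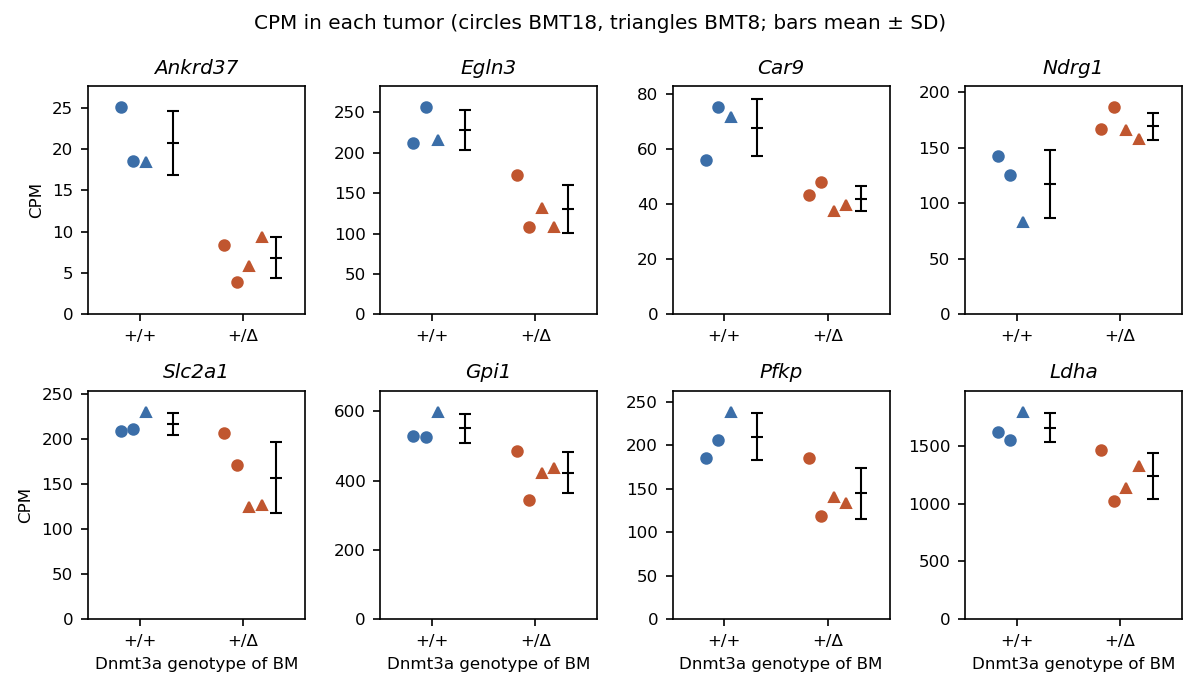
CPM in each of the 7 tumors for Ankrd37, Egln3, Car9, Ndrg1, Slc2a1, Gpi1, Pfkp and Ldha, by Dnmt3a genotype of the BM (blue +/+, orange +/Δ), with circles for BMT18, triangles for BMT8 and black bars for mean ± SD. The 4 +/Δ tumors lie at 3.89 to 9.38 CPM of Ankrd37, below the +/+ tumors at 18.4 to 25.1, and they lie above the +/+ tumors for Ndrg1.

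The largest differences of the module were in HIF targets that do no work in glycolysis. Of these 6 genes, 5 had a log2 fold change below 0, with a median of -0.49. At an unadjusted p under 0.05, 3 (50%) were lower against 5.2% of all genes and 1 (16.7%) was higher against 5.83%. The median was -0.31 in BMT18 alone and -0.25 with library size alone, where the median of all genes was 0.21. HIF binds the core ACGTG and, less often, GCGTG, so the 250 bases before the RefSeq start (GRCm38.p6) of the members were searched for both on both strands, where a core that reads the same on both strands counts on each. Of the 29 members with a RefSeq window, 17 (58.6%) held ACGTG in at least 1 of their windows against 18.5% of 27025 genes, and 26 (89.7%) held either core against 41.5%. The members were picked partly as known HIF targets, so a higher share can follow from that choice. They also had more windows per gene, 41 for 29 members against 32851 for the 27025 genes. Ndrg1 and Epas1 had no entry. Windows of the following 4 genes are printed because they differed most in their group (Ankrd37, Egln3), were the enzyme with the lowest p (Pfkp) or carried the most ACGTG matches (Ldha). Capitals mark the cores, on either strand, and a match is a description of letters and not a bound site.
Ankrd37, chr8:45999851-46000100, minus strand: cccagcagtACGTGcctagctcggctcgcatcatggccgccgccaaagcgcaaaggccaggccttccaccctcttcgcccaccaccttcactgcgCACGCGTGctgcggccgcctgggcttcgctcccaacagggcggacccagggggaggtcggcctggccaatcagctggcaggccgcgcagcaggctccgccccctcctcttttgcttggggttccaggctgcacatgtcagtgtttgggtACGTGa
Egln3, chr12:54203875-54204124, minus strand: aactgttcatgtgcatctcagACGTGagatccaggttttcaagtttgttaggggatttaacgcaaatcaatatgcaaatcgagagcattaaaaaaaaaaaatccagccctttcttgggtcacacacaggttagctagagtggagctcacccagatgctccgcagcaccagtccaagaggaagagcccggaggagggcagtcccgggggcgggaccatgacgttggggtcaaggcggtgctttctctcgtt
Pfkp, chr13:6648772-6649021, minus strand: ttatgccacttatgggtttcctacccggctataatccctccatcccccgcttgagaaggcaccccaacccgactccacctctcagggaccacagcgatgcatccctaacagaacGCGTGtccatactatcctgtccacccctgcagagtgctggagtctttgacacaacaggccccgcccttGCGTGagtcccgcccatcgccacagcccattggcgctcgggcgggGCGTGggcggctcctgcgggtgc
Ldha, chr7:46845554-46845803, plus strand: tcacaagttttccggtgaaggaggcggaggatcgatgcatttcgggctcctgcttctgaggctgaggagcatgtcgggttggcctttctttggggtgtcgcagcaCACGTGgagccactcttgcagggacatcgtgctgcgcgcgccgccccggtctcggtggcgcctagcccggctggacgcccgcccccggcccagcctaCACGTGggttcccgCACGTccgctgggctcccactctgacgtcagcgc

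In these windows Ankrd37 had ACGTG beginning 241 and 6 bases before the start and GCGTG at 155 and 152 bases, the latter pair overlapping on opposite strands. The last 17 bases of its window lie in an exon of the gene in GENCODE M21. Egln3 had 1 ACGTG, 229 bases before the start, and Pfkp had no ACGTG and 3 GCGTG. The printed window of Ldha had 5 ACGTG matches, of which 4 come from a pair of palindromes CACGTG read on both strands. Bases 11 to 30 after its start were found in no GENCODE M21 transcript of Ldha, nor were those after the start of Egln3 in one of that gene. A second RefSeq window of Ldha (chr7:46846832-46847081), for which these bases were found, held no ACGTG and 1 GCGTG. In the window of Car9 (chr4:43506776-43507025) the only core was an ACGTG 18 bases before the start, inside the 60 bases that GENCODE M21 places in its first exon.

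Ankrd37 (ENSMUSG00000050914, chr8:45996902-46005707, GRCm38, minus strand) encodes a small ankyrin repeat protein known as a direct HIF target. With Dnmt3a+/+ BM its CPM was 25.1, 18.5 and 18.4, and with Dnmt3a+/Δ BM 8.36, 3.89, 5.79 and 9.38. Every Dnmt3a+/Δ tumor was below the lowest control, and the lowest value was that of replicate 2. The log2 fold change was -1.59 ± 0.33 (SE), with an adjusted p of 0.361 in edgeR and an adjusted p of 0.00185 in DESeq2. It was lower in both experiments, by a mean log2 CPM of -1.91 in BMT18 and -1.31 in BMT8. Of its exons, 57 bases are shared with the opposite-strand gene Ufsp2 (49.0 CPM), and whether the counting used strand is not given in the sources used here.

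Egln3 (ENSMUSG00000035105, chr12:54178981-54203860, minus strand), the prolyl hydroxylase most strongly raised by HIF and a brake on it, was at 212, 257 and 216 CPM with Dnmt3a+/+ BM and at 173, 109, 132 and 109 CPM with Dnmt3a+/Δ BM. The latter group was lower throughout, with replicate 1 the nearest to the controls. The log2 fold change was -0.81 ± 0.20 (edgeR, adjusted p = 0.361), and it was -0.77 in BMT18 and -0.85 in BMT8. Car9 (ENSMUSG00000028463, chr4:43506966-43513729, plus strand), a membrane carbonic anhydrase that exports acid and is widely used as a stain for hypoxic tumor cells, was at 56.0, 75.5 and 71.8 CPM against 43.4, 48.0, 37.4 and 39.7. The spread within Dnmt3a+/Δ tumors was small (SD 4.63) and none reached the controls. Its log2 fold change was -0.69 ± 0.16 (edgeR, adjusted p = 0.361). In DESeq2 the adjusted p was 0.0721 for Egln3 and 0.0639 for Car9.

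Ndrg1, a stress-responsive gene linked to differentiation of the colon epithelium and also raised by HIF, went the other way. It was at 142, 125 and 82.8 CPM with Dnmt3a+/+ BM and at 167, 187, 165 and 158 with Dnmt3a+/Δ BM, a log2 fold change of 0.53 ± 0.20 (edgeR, adjusted p = 0.420). Its value rests in part on Dnmt3a+/+ replicate 3, without which it was 0.34. Bnip3, a receptor for the removal of mitochondria, overlapped between the groups, at 66.4 to 84.1 against 50.5 to 73.6 CPM (log2 fold change -0.25 ± 0.18, and -0.15 without Dnmt3a+/+ replicate 2). Adm, a peptide that widens vessels, was low in all tumors and overlapped, at 6.99, 8.63 and 8.41 CPM against 4.84, 11.5, 5.14 and 4.6. The 3 Dnmt3a+/Δ tumors other than replicate 2 were below the controls and replicate 2 was above them.

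**Figure D2:**
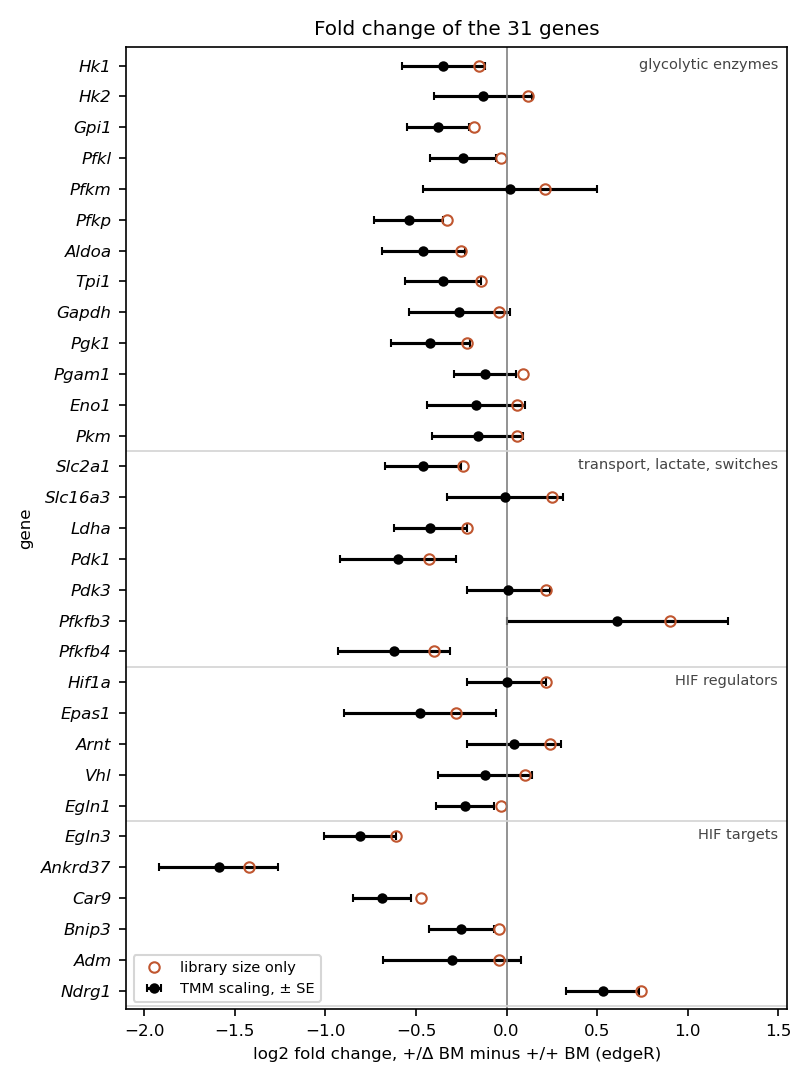
Log2 fold change (+/Δ minus +/+ BM) of the 31 genes by role, with black points and bars for the TMM-scaled edgeR estimate ± SE and open circles for scaling by library size alone. Ankrd37 (-1.59), Egln3 (-0.81) and Car9 (-0.69) lie farthest to the left and Ndrg1 and Pfkfb3 to the right, and the open circles are shifted to the right by about the same amount for all genes.

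HIF targets with a metabolic role were examined next, since they set how much glucose enters and where pyruvate goes. Of the 7 genes, 5 had a log2 fold change below 0, with a median of -0.42, and none had an unadjusted p under 0.05. With the experiment as a covariate Slc2a1 and Pfkfb4 did, and in BMT18 alone Slc16a3 did and the median was -0.14. Over all genes, 1744 of 15810 did without a covariate, 2328 of 15810 with it and 1499 of 15854 in BMT18 alone. Slc2a1, the main glucose transporter of growing cells, was at 209, 211 and 231 CPM against 207, 171, 124 and 127. The last 2 of these are the BMT8 tumors, and Dnmt3a+/Δ replicate 1 was level with the controls. The log2 fold change was -0.46 ± 0.21 (edgeR, adjusted p = 0.471). Ldha, which turns pyruvate into lactate, was at 1622, 1555 and 1800 CPM against 1469, 1028, 1134 and 1328, with all 4 Dnmt3a+/Δ tumors lower (log2 fold change -0.42 ± 0.20, edgeR adjusted p = 0.481). Pdk1, a kinase that closes the entry of pyruvate to mitochondria, was at 101, 116 and 69.7 CPM against 96.5, 38, 66.1 and 52.3 and overlapped (-0.60 ± 0.32, adjusted p = 0.531 in edgeR, and -0.39 without Dnmt3a+/Δ replicate 2). Its relative Pdk3 was at 19.4 ± 1.83 CPM (SD, n = 3) against 19.5 ± 5.1 (SD, n = 4).

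Slc16a3, the lactate exporter induced by hypoxia, did not separate the groups, at 85.9, 91.3 and 184 CPM against 126, 158, 88.6 and 105. Its direction differed between experiments, with a mean log2 CPM difference of 0.67 in BMT18 and -0.93 in BMT8. The Pfkfb enzymes make and break the signal that speeds phosphofructokinase. Pfkfb4 was at 25.0, 19.5 and 13 CPM against 14.8, 16.3, 9.95 and 8.79, with overlap (log2 fold change -0.62 ± 0.31, edgeR adjusted p = 0.503, and -0.39 without Dnmt3a+/+ replicate 1). Pfkfb3 was at 17.0, 14.9 and 12.4 CPM against 19.5, 50.9, 12.4 and 7.35, so that Dnmt3a+/Δ replicate 2 alone was far above all others. Its log2 fold change was 0.61 ± 0.61 with that tumor and -0.15 without it.

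The 13 glycolytic enzymes from hexokinase to pyruvate kinase showed shallow differences, mostly to the same side. Under TMM 12 of them had a log2 fold change below 0, and with library size alone 8 did, with medians of -0.26 and -0.04. Relative to the median of all genes these medians were -0.26 and -0.25, with 12 and 13 enzymes under it. Without a covariate, Pfkp alone had an unadjusted p under 0.05 (7.69% of the enzymes, against 5.2% of all genes). With the experiment as a covariate Gpi1, Pfkp and Aldoa did, without Dnmt3a+/Δ replicate 1 Hk1, Gpi1, Pfkp and Pgk1 did, and none did in the fits that left out Dnmt3a+/+ replicate 2 or 3 or Dnmt3a+/Δ replicate 2, 3 or 4. Over all genes, 1744 of 15810 did without a covariate, 2328 of 15810 with it and 2143 of 15587 without Dnmt3a+/Δ replicate 1. In all tumors 2 enzymes, Gpi1 and Aldoa, did not overlap between the groups in TMM-scaled CPM (15.4%, against 6.32%). Both overlapped with library size alone. Pfkp, the platelet-type phosphofructokinase, was at 185, 206 and 239 CPM against 186, 119, 140 and 133. Replicate 1 with Dnmt3a+/Δ BM was within the range of the controls and the other 3 were below it. The log2 fold change was -0.54 ± 0.19 (edgeR, adjusted p = 0.406). Pfkp shares 748 exon bases with the opposite-strand gene Pitrm1 (46.6 CPM).

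Gpi1, which converts glucose 6-phosphate to fructose 6-phosphate, was at 528, 526 and 599 CPM against 487, 345, 423 and 436 (log2 fold change -0.38 ± 0.17, edgeR adjusted p = 0.465). Near-identical copies of its transcript carried 10.7% of the counts of gene and copies, so its value is less certain than those of other enzymes. Aldoa, the aldolase that splits fructose bisphosphate, was at 1188, 1199 and 1781 CPM against 1103, 809, 952 and 1173 (-0.46 ± 0.23, adjusted p = 0.502 in edgeR). Without Dnmt3a+/+ replicate 3, which was the highest, the log2 fold change of Aldoa was -0.25. Pgk1, the first enzyme of the path to yield ATP, overlapped at 1003, 1022 and 1267 against 1030, 623, 756 and 865 CPM (-0.42 ± 0.22). Tpi1 (-0.35 ± 0.21), Hk1 (-0.35 ± 0.23) and Pfkl (-0.24 ± 0.18), the triose isomerase, the constitutive hexokinase and the liver-type phosphofructokinase, also had overlapping groups. Each moved with single tumors, Tpi1 to -0.18 without Dnmt3a+/+ replicate 3, Hk1 to -0.55 without Dnmt3a+/Δ replicate 1 and to -0.23 without replicate 2, and Pfkl to -0.39 without Dnmt3a+/+ replicate 1 and -0.12 without replicate 2.

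The remaining 6 enzymes had estimates no larger than their SE and overlapping groups. Gapdh was at 2461 to 4246 CPM with Dnmt3a+/+ BM and 2270 to 3225 with Dnmt3a+/Δ BM, and Pkm, the pyruvate kinase of tumors, at 1920 to 3117 and 1729 to 2354. Eno1 was at 795 to 1482 and 780 to 1049 CPM, and Pgam1 at 372 to 446 and 313 to 425. The ranges of Hk2, the inducible hexokinase, were 170 to 310 and 168 to 286 CPM, and those of the muscle-type phosphofructokinase Pfkm 3.76 to 13.1 and 6.08 to 14.5. Dnmt3a+/+ replicate 3 had the highest TMM-scaled value of all 7 tumors for 10 of the 13 enzymes. Its TMM factor was the smallest (0.845), which raises all its CPM, and the share of all genes for which it was highest was not counted. Without that tumor the log2 fold change of Gapdh was 0.05, of Pkm 0.10, of Hk2 0.16 and of Eno1 0.18, so that 4 of the 12 enzymes below 0 were above it, and Pfkm was at -0.34. The median of the enzymes was then -0.19.

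**Figure D3:**
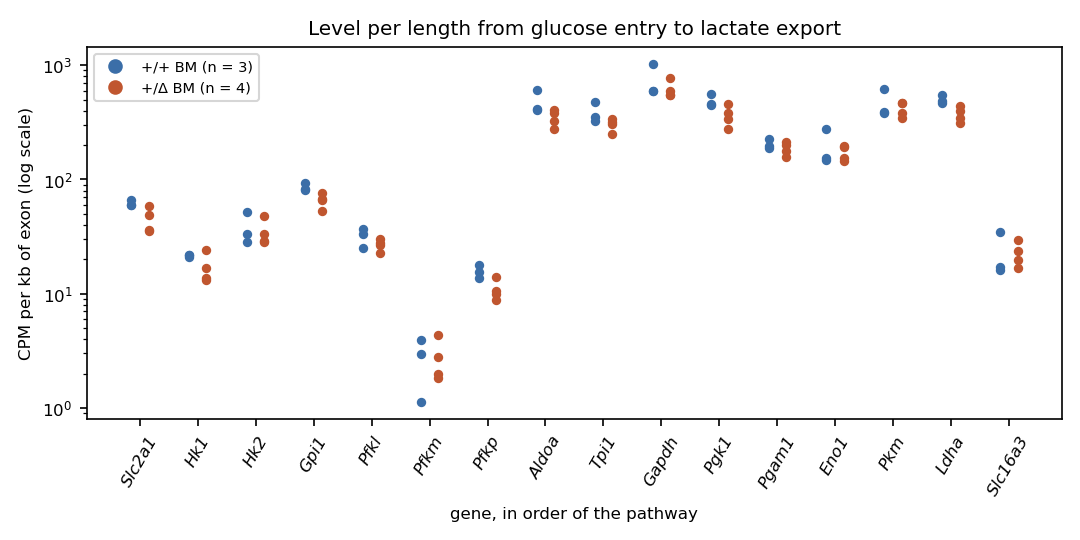
CPM per kb of exon (log axis) of 16 genes in the order of the pathway from glucose entry to lactate export, one point per tumor (blue +/+ BM, orange +/Δ BM). Levels step up between the phosphofructokinases and Aldoa, Gapdh is highest, and the orange points lie level with or slightly under the blue ones along the whole path.

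Per length, the highest levels lay in the later steps of the pathway, from Aldoa onward. On the scale of CPM per kb of exon, averaged over the 7 tumors, Gapdh was highest at 672, followed by Pkm at 438, Ldha at 429, Pgk1 at 418 and Aldoa at 403. The ranges over tumors of these 4 overlapped (346 to 623 for Pkm, 311 to 544 for Ldha, 278 to 564 for Pgk1 and 278 to 612 for Aldoa), so their order is not resolved. Of the HIF targets outside glycolysis, Egln3 (64.8) was the most abundant per length and Adm (4.42) the least, and Hif1a (38.1) was above Epas1 (8.00). Pfkfb3 was the lowest member at 2.54. Of the phosphofructokinase mRNA per length, Pfkl made up 58.4% to 69.4%, Pfkp 25.8% to 33.9% and Pfkm 2.15% to 9.20% over the 7 tumors.

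The 5 HIF regulators showed no common shift. The median log2 fold change was -0.12 under TMM and 0.10 with library size alone, 4 of 5 and 2 of 5 were below 0, and none had an unadjusted p under 0.05. Hif1a, the α subunit present in most cells, was at 231, 228 and 216 CPM against 246, 291, 158 and 203, and the mean was 225 ± 8.04 (SD, n = 3) and 225 ± 56.9 (SD, n = 4). The Dnmt3a+/Δ tumors lay on both sides of the controls, above them in BMT18 and below in BMT8. Epas1, the α subunit of endothelium and some epithelia, was at 61.8, 77.1 and 21.2 CPM against 37.9, 49.0, 41.0 and 24.9. Its lowest value was a control, Dnmt3a+/+ replicate 3, and the groups overlapped (log2 fold change -0.48 ± 0.42). That fold change was -0.86 without Dnmt3a+/+ replicate 3, -0.12 without replicate 2 and -0.19 with the experiment as a covariate. Arnt, the stable partner, and Vhl, which marks the α subunits for destruction, overlapped as well, at 21.5 to 36.4 against 22.0 to 39.2 CPM and at 15.5 to 27.5 against 17.3 to 27.5. Egln1, the main oxygen sensor of the family, was very even in the controls at 87.5, 87.5 and 88.9 CPM and was at 87.3, 57.4, 78.2 and 77.0 with Dnmt3a+/Δ BM (-0.23 ± 0.16, adjusted p = 0.627 in edgeR, and -0.10 without replicate 2).

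**Figure D4:**
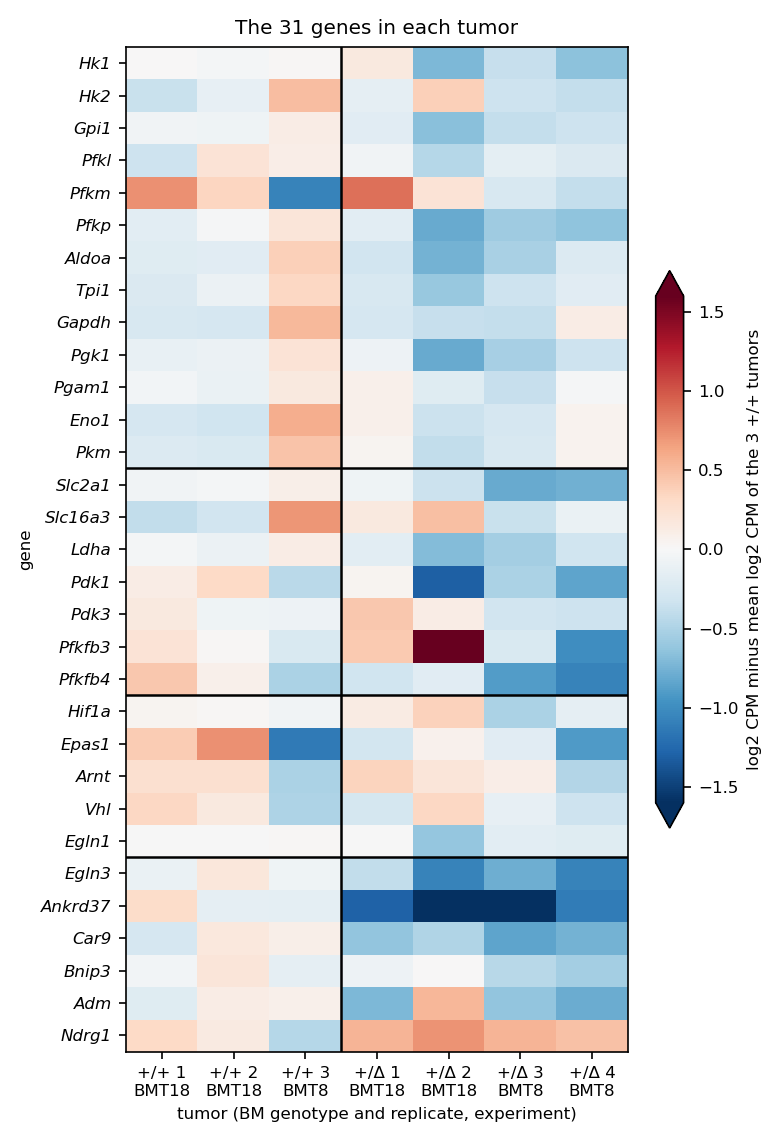
TMM-scaled log2 CPM of the 31 genes (rows, by role) in the 7 tumors (columns, with experiment), minus the mean of the 3 +/+ tumors. Colors run from blue (lower) to red (higher) and saturate at 1.6. Ankrd37, Egln3 and Car9 are blue in all 4 +/Δ columns and Ndrg1 is red, while the enzyme rows are red mainly in +/+ replicate 3 and blue mainly in +/Δ replicate 2.

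The 4 Dnmt3a+/Δ tumors did not carry the pattern to the same degree. Replicate 1 had 11 of the 31 genes below all controls, 13 within their range and 7 above, whereas replicates 2, 3 and 4 had 18, 21 and 19 below. The same positions were not counted over all genes, so whether they are particular to the module is not known. In TMM-scaled CPM, replicate 2 had the lowest value of all 7 tumors for 13 genes, among them most enzymes. Yet it held the highest Pfkfb3, Hif1a, Adm and Ndrg1. Its TMM factor was the largest of the 7 (1.21), which lowers all its CPM, and that of Dnmt3a+/+ replicate 3 the smallest (0.845). Positions with library size alone were not counted. For the HIF targets outside glycolysis, the median difference from the control mean of log2 CPM was -0.51, -0.24, -0.71 and -0.77 in replicates 1 to 4, and for the enzymes it was -0.08, -0.46, -0.36 and -0.23. Replicate 1 was thus near the controls in its enzymes and below them in Ankrd37, Egln3 and Car9.

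Ratios of a pair of members within a tumor do not depend on library scaling and were used to compare isozymes and HIF targets with their relatives. Of 7 ratios, taken on counts per kb, 2 did not overlap between the groups. The log2 ratio of Egln3 to Egln1 was 1.71, 1.99 and 1.72 with Dnmt3a+/+ BM and 1.42, 1.35, 1.19 and 0.93 with Dnmt3a+/Δ BM, a difference of -0.58. The inducible hydroxylase was thus lower relative to the constitutive one in all 4 Dnmt3a+/Δ tumors (exact permutation test, p = 0.0571, the smallest it can give, adjusted p = 0.2 over the 7 ratios). The log2 ratio of Ldha to Ldhb, the heart-type subunit that is not a member, was 6.15, 7.32 and 7.83 against 5.44, 3.72, 4.37 and 5.23, a difference of -2.41 (exact p = 0.0571, adjusted p = 0.2). Most of it came from Ldhb, at 10.8, 4.62 and 3.76 CPM against 16.0, 37.0, 26.1 and 16.8. The subunit was higher in every Dnmt3a+/Δ tumor, with a log2 fold change of 1.91 ± 0.48 (edgeR adjusted p = 0.361, and adjusted p = 0.00546 in DESeq2).

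**Figure D5:**
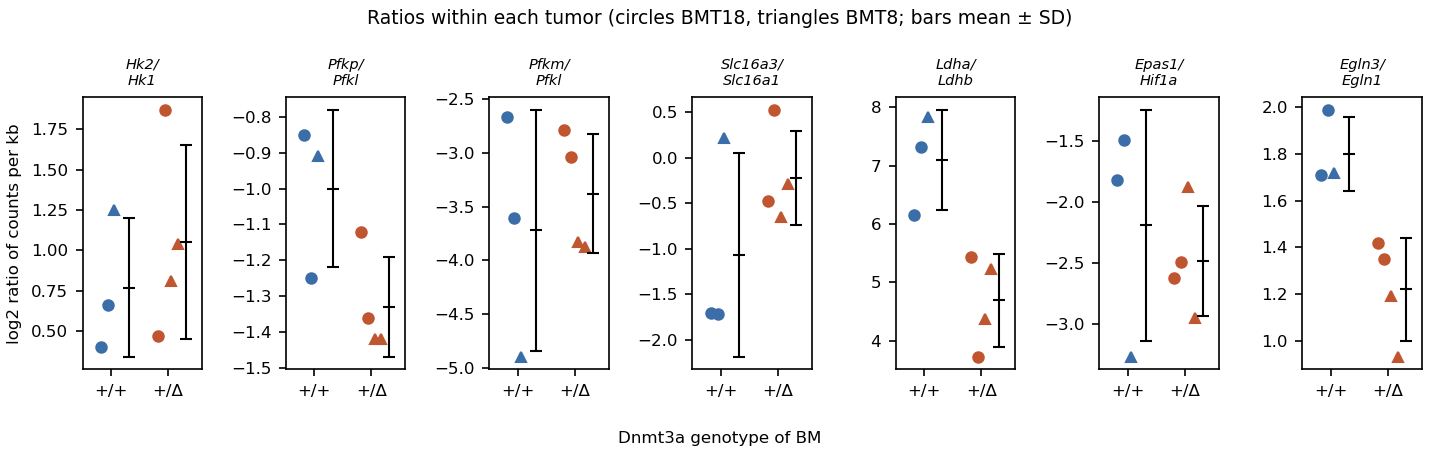
Log2 ratio of counts per kb of exon for 7 pairs of genes within each tumor, by Dnmt3a genotype of the BM, with circles for BMT18, triangles for BMT8 and bars for mean ± SD. Ldha/Ldhb and Egln3/Egln1 are lower in all 4 +/Δ tumors, and the other 5 ratios overlap.

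The other 5 ratios overlapped. Pfkp to Pfkl was -1.0 ± 0.22 (SD, n = 3) and -1.33 ± 0.14 (SD, n = 4), a difference of -0.33 (exact permutation test, p = 0.114, adjusted p = 0.267). Slc16a3 to its relative Slc16a1, the ubiquitous lactate carrier, differed by 0.85 overall (exact p = 0.229, adjusted p = 0.4), by 1.75 in BMT18 and by -0.69 in BMT8, and by 1.5 without Dnmt3a+/+ replicate 3. Slc16a1 itself was lower, at 234, 251 and 132 CPM against 145, 91.0, 116 and 107 (log2 fold change -0.84 ± 0.26, edgeR adjusted p = 0.383). The ratios Hk2 to Hk1, Pfkm to Pfkl and Epas1 to Hif1a differed by 0.28, 0.34 and -0.29, with exact p-values of 0.571, 0.743 and 0.571. None of these had a stable direction. Without 1 tumor Hk2 to Hk1 went to 0.0 (Dnmt3a+/Δ replicate 2), Pfkm to Pfkl to -0.25 (Dnmt3a+/+ replicate 3) and Epas1 to Hif1a to 0.06 (Dnmt3a+/+ replicate 2). In BMT18 and BMT8, Hk2 to Hk1 differed by 0.64 and -0.32, and Epas1 to Hif1a by -0.90 and 0.86.

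Genes of the same pathways outside the module gave the wider picture. Of 37 other glycolysis and pyruvate genes tested, 26 were lower and 11 higher, with a median log2 fold change of -0.20. With library size alone 19 were lower and the median was -0.01, while relative to the median of all genes 26 were lower under both scalings. At an unadjusted p under 0.05, 4 (10.8%) were lower against 5.2% of all genes and 2 (5.41%) were higher against 5.83%. Besides Slc16a1, the lower genes of lowest p were the muscle-type enolase Eno3 (-1.10 ± 0.38, edgeR adjusted p = 0.406) and Mpc2, a subunit of the mitochondrial pyruvate carrier (-0.55 ± 0.22, edgeR adjusted p = 0.435). The mean log2 CPM difference of Eno3 was -1.84 in BMT18 and -0.04 in BMT8, so it lay in 1 experiment. Besides Ldhb, the higher gene was Pdk4, a starvation-induced relative of Pdk1, at 2.20, 1.36 and 0.673 CPM against 3.19, 12.5, 8.71 and 3.41 (2.30 ± 0.66, edgeR adjusted p = 0.373, DESeq2 adjusted p = 0.0124). Pdk4 was low in all tumors and higher in every Dnmt3a+/Δ tumor.

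Of 33 other HIF targets, 14 were lower and 19 higher, with a median of 0.07, beside -0.49 for the 6 members that are HIF targets outside glycolysis. The lists are not alike, since the 33 include genes of glycolysis and sugar storage. Some of these, such as Pgm1, were also counted in the list above. With library size alone 8 of the 33 were lower and the median was 0.30, and relative to the median of all genes 15 and 13 were lower under the 2 scalings. None was lower at an unadjusted p under 0.05 and 1 was higher, Hmox1, the heme oxygenase (0.94 ± 0.38, edgeR adjusted p = 0.435, and 0.59 without Dnmt3a+/Δ replicate 2). The lower ones of lowest p were Bnip3l (-0.44 ± 0.21, edgeR adjusted p = 0.491, and -0.27 without Dnmt3a+/Δ replicate 2) and Pgm1 (-0.37 ± 0.19, edgeR adjusted p = 0.510). Of 12 other regulators of the pathway, 7 were lower and 5 higher, with a median of -0.02. With library size alone 3 were lower and the median was 0.21, the same as that of all genes. The one with p under 0.05 was Arnt2, a partner subunit mainly of neurons and some endothelium, at 1.42, 0.952 and 1.47 CPM against 3.97, 23.8, 6.32 and 4.38 (2.91 ± 0.74, edgeR adjusted p = 0.361, DESeq2 adjusted p = 0.00178). Egln2, the third hydroxylase, was at 93.7 to 99.1 TMM-scaled CPM against 61.4 to 84.7 without overlap (-0.32 ± 0.15, edgeR adjusted p = 0.482, and -0.20 without Dnmt3a+/Δ replicate 2). With library size alone its log2 fold change was -0.12. It was the only gene of the 12 (8.33%) with every Dnmt3a+/Δ tumor lower, against 6.32% of all genes. Arnt2 was the only one with every such tumor higher (8.33%, against 6.12%).

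Markers of several cell types in a whole tumor leaned to one side between the groups, in part through single tumors. The summed CPM of 10 epithelial markers was 19799 to 38798 with Dnmt3a+/+ BM and 10816 to 24617 with Dnmt3a+/Δ BM, with 9 of 10 lower, a median log2 fold change of -0.57, and Epcam at 2004 to 3239 against 1543 to 2437. That median was -0.35 with library size alone (7 of 10 lower) and -0.28 without Dnmt3a+/+ replicate 3, the tumor with the highest sum. The sum of 11 endothelial markers was 19.9 to 40.7 against 43.9 to 173 without overlap, with 11 of 11 higher and 8 at an unadjusted p under 0.05 (median 1.72). Fibroblast markers summed to 180 to 351 against 260 to 1091 CPM (9 of 9 higher), macrophage markers to 147 to 231 against 153 to 358 (6 of 8 higher) and 6 erythroid markers to 30.9 to 43.4 against 20.9 to 381 (5 of the 5 tested higher). Without Dnmt3a+/Δ replicate 2 the median log2 fold change went from 0.79 to 0.20 for the fibroblast and from 0.79 to 0.08 for the macrophage markers, and that of the endothelial markers was 1.23. Without Dnmt3a+/Δ replicate 4 the median of the erythroid markers went from 2.78 to 1.61. The sums of 8 smooth muscle markers (43.0 to 962 against 270 to 1223), 7 skeletal muscle markers (2.48 to 80.7 against 4.24 to 112), 6 leukocyte markers (50.5 to 108 against 44.2 to 203), 8 neutrophil markers (1532 to 7545 against 271 to 8388) and 7 T cell markers (5.96 to 16.2 against 1.65 to 15.9) overlapped. Proliferation genes summed to 602 to 1206 against 904 to 1212 CPM. No marker was at 0 in every tumor. The lower values of epithelial and the higher values of endothelial markers stood beside the differences of Egln3, Car9 and the enzymes, and their part in these was not tested.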

How the data were processed

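Poly(A) RNA of 7 whole colon tumors was sequenced from libraries that mark strand. After trimming (Trimmomatic) and alignment to mm10 (STAR), the authors deposited estimated counts per gene from RSEM, without normalization; 100% of the values are whole numbers. The annotation release and the strand setting of the counting are not given in the sources used here. Groups came from sample titles, and the experiment was read from the codes in the sample descriptions. Symbols, exon lengths and positions were taken from GENCODE M21 (GRCm38), which matched 42462 identifiers. Identifiers without a symbol held 0.104% of the counts.

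The comparison of the groups used edgeR 4.0.16 under R 4.3.3 (filterByExpr, TMM, quasi-likelihood test, Benjamini-Hochberg adjustment over 15810 genes, no covariate). The study's methods name DESeq2, which was run as an alternative (version 1.42.0). The replicates are separate tumors, and the labels and methods do not tie them to litters. Other alternatives were library size alone, RLE scaling, no filter on low counts, robust dispersion, the experiment as a covariate, BMT18 alone, the replicate number as a block and each tumor left out. Log2 CPM used a prior count of 2. Log2 fold changes are given for the 19 members where they exceed their SE and, for the others, CPM ranges. Single ratios were compared with two-sided exact permutation tests over the 35 ways to divide 7 tumors (scipy 1.17.1). The scripts were tested on simulated data. Near-identical transcripts were found with blastn 2.17.0+ (identity of at least 95% over 100 bases), and promoter windows came from RefSeq.

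All members are named. Of each wider list, up to 3 genes per direction with the lowest unadjusted p could be named, with Slc16a1, Ldhb and Dnmt3a. Members and lists were chosen with earlier results of these data known.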

Additional observations from a re-analysis of the deposited data

Results flagged for a closer look

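In 4 of 56 values (member levels, sums of the member and marker lists, and the 7 ratios), 1 Dnmt3a+/Δ tumor stood apart from the other 3 by Dixon's criterion, where chance gives about 2.8. Dnmt3a+/Δ replicate 2 held 3 of the 4: Adm at 11.5 CPM (next highest 5.14), the fibroblast marker sum at 1091 CPM (next 396) and the macrophage marker sum at 358 CPM (next 185). The fourth was the skeletal muscle marker sum of Dnmt3a+/Δ replicate 1, at 112 CPM (next 8.06). 

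In 3 members the groups differed in opposite directions in the experiments, with every tumor of one group on one side within each. The share of all genes for which this held was not counted. The 3 are thus a description and are not shown to exceed what so few tumors give. The mean log2 CPM difference of Slc16a3 was 0.67 in BMT18 and -0.93 in BMT8, that of Epas1 was -0.68 and 0.59, and that of Hif1a was 0.22 and -0.27. In edgeR's interaction of group and experiment, Slc16a3 and Epas1 had an unadjusted p under 0.05 and Hif1a did not. BMT8 holds a single Dnmt3a+/+ tumor. Over all genes, 0 had an adjusted interaction p under 0.05 in edgeR and 730 had an unadjusted one, and 4 members were among the latter: Slc2a1, Hk2, Slc16a3 and Epas1. The interaction was added after the data were seen.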

How the results depend on the processing

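Of 286 log2 fold changes under alternatives (the 19 members with one given, and Eno1 summed with its copy Eno1b), 284 kept their direction and their side of the call. Ankrd37 was called in DESeq2 (log2 fold change -1.58, adjusted p = 0.00185; over its other alternatives the adjusted p ran from 0.192 to 0.817), and Pfkfb3 reversed to -0.15 without Dnmt3a+/Δ replicate 2 (0.91 without replicate 4). DESeq2 called 299 genes and 1 member where edgeR called none. The cause was not tested. The number of members at an unadjusted p under 0.05 was 5, against 9 where the experiment entered as a covariate (Slc2a1, Gpi1, Aldoa and Pfkfb4 besides the 5), 3 in BMT18 alone and 3 to 10 when a tumor was left out: 10 without Dnmt3a+/Δ replicate 1, and 3 without Dnmt3a+/+ replicate 2 or without Dnmt3a+/Δ replicate 3. The number over all genes moved too. It was 1744 of 15810 without a covariate, 2328 of 15810 with it and 1499 of 15854 in BMT18 alone. It was 2143 of 15587 without Dnmt3a+/Δ replicate 1, 883 of 16299 without Dnmt3a+/+ replicate 2 and 1337 of 15563 without Dnmt3a+/Δ replicate 3. Egln3, Ankrd37 and Car9 were among the members under 0.05 in all 7 fits that left out a tumor. In BMT18 alone the 3 were Slc16a3, Epas1 and Ankrd37, and Egln3 and Car9 were not among them. The median log2 fold change of the HIF targets outside glycolysis ran from -0.70 without Dnmt3a+/Δ replicate 2 to -0.41, was -0.31 in BMT18 alone and -0.25 with library size alone. That of the metabolic HIF targets was -0.14 in BMT18 alone, and that of the enzymes was -0.04 with library size alone, where the median of all genes moved by about as much. The log2 ratio of Slc16a3 to Slc16a1 differed by 1.75 in BMT18 alone.

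Replicate numbers were not treated as pairs in the main fit. Deviations of same-numbered tumors correlated at 0.568, 0.071 and -0.038, and the first of these was the highest of all pairs across the groups. So few values cannot settle whether the numbers pair tumors. With the replicate number as a block, 0 genes were called, 1885 had an unadjusted p under 0.05, and 4 members did: Egln3, Ankrd37, Car9 and Ndrg1. Of the 3 Dnmt3a+/+ tumors, replicates 2 and 3 correlated best with a Dnmt3a+/Δ tumor of another number (0.124 with replicate 3 and 0.489 with replicate 4).

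With 4 tumors against 3 from 2 experiments, 6 of the 13 enzymes had a difference no larger than its SE. TMM rests on most genes not changing in these mixed tissues. Whole tumors do not show in which cells a transcript changed.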
